A study of Homo sapiens with 6 samples.

Results

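SFRP1 encodes secreted frizzled related protein 1, a Wnt inhibitor that cells release into their surroundings. Its mRNA was followed by RNA sequencing in ARPE-19, an established human line derived from the retinal pigment epithelium (RPE), and it is 1 gene of the 7758 in the deposited table. The gene was taken by its symbol, and it was singled out for the size of its difference between the groups in these 6 libraries. Its own levels are therefore given as a description, with no test.

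The control cells carried a control hairpin, labelled Scramble (sh-Control, 3 libraries), and the METTL3-silenced cells carried a hairpin against METTL3 (sh-METTL3, 3 libraries). METTL3 is the enzyme that writes N6-methyladenosine (m6A) into mRNA. Hairpins were brought in by lentivirus and the cells were selected as stably transformed strains. All 6 libraries came from cells given lipopolysaccharide (LPS), a bacterial product that causes inflammation, at 1 μg/ml for 24 h, and no unstimulated library was among them. Whether the 3 libraries within a group trace back to different infections or cultures is not stated, so the p-values below measure only the spread between these libraries.

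Wnt proteins are secreted signals that bind Frizzled receptors and the co-receptors LRP5 and LRP6 on the cell surface, which keeps β-catenin from being degraded and lets it act with TCF and LEF factors on target genes. SFRP1 carries a cysteine-rich domain like that of the Frizzled receptors, by which it can bind Wnt proteins or Frizzled itself, and a netrin-like domain. It is best known as an inhibitor of Wnt signalling, although it can also favour it in some settings, and it has also been described as an inhibitor of the membrane protease ADAM10. In the eye it takes part in patterning the optic cup and in guiding retinal axons.

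The values are scaled counts, that is, the reads of a gene divided by 1 size factor per library. Each library held between 10898434 and 17750052 reads on the listed genes, and the full depth is unknown because only genes that the authors had called as different were listed. METTL3 itself had scaled counts of 1154, 1108 and 1091 in the control libraries and of 966, 1001 and 765 in the METTL3-silenced libraries. This was 18.5% lower, a log2 difference of -0.30 (limma, SE 0.0965, adjusted p 0.0320). The adjusted p by limma, edgeR or DESeq2 ran from 0.0108 to 0.269 over 17 alternatives and missed the threshold in 8, among them each fit without 1 of the control libraries. Without sh-METTL3 replicate 3 the log2 difference was -0.18. The study also reported less METTL3 protein and a lower m6A rate in its METTL3-silenced ARPE-19 cells, which these libraries do not measure. Of 18 RPE markers 9 were listed, 6 higher and 3 lower, and their summed scaled count was from 18931 to 20227 in the control libraries and from 30440 to 33789 in the METTL3-silenced ones. Most of that sum came from the epithelial keratins KRT8, with a mean of 10761 and 22324, and KRT18, with 5979.8 and 7969. The other 4 that rose were STRA6, RDH5, LRAT and MITF, with log2 differences of 2.94, 1.56, 0.99 and 0.85, and the 3 that fell were SERPINF1, PMEL and BEST1, with log2 differences of -3.04, -1.80 and -1.73. RPE65, RLBP1, TYR, TYRP1, DCT, OTX2, TTR, RGR and MERTK were not listed and not analysed here. The 6 listed of 14 mesenchymal markers, 2 higher and 4 lower, summed to between 13163 and 15219 against between 7039 and 9088, and the 3 listed of 7 leukocyte markers summed to between 170 and 211 against between 157 and 187. Of these 3, CD14 and ITGAM fell, with log2 differences of -3.71 and -3.07, and CSF1R rose, with one of 0.98. The 2 listed of 10 neural retina markers, PAX6 and RAX, summed to between 1855 and 1887 against between 2682 and 2937, and RAX was at 0 in all 3 control libraries. No endothelial marker of 6 was listed. The part of these markers in the level of SFRP1 was not tested, and in bulk RNA more cells of a kind and more RNA per cell cannot be told apart.

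Among the listed mRNAs SFRP1 had a middling level in the control cells and was one of the most abundant in the METTL3-silenced cells. Its scaled count was 488, 547 and 503 in the control libraries 1, 2 and 3. The METTL3-silenced libraries, in the same order, held 21000.0, 22388 and 23759. The groups were far apart, and within each group the libraries lay close together, with the highest value 1.12 times the lowest in the control cells and 1.13 times the lowest in the METTL3-silenced cells. These values rest on 612, 569 and 538 reads in the control libraries and on 22509, 17373 and 21218 reads in the METTL3-silenced ones. The group means were 513 ± 30.4 for sh-Control and 22382 ± 1379 for sh-METTL3 (SD, n = 3 each), a ratio of 43.7. The lowest METTL3-silenced library was 38.4 times the highest control library, and the highest was 48.7 times the lowest. On the scale of log2(scaled count + 1) the difference was 5.45, with an SE of 0.0709 from the spread between libraries.

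The spread of SFRP1 was that of a gene of its level. Its coefficient of variation was 5.94% in the control cells, and the median over the 714 other listed genes within 1.25 times of its control level was 5.98%. In the METTL3-silenced cells it was 6.16%, against a median of 5.51% over 54 genes within 1.25 times of its level there. Counting reads alone would give 4.18% and 0.704%, so most of the spread in the METTL3-silenced libraries was not counting error.

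**Figure D1:**
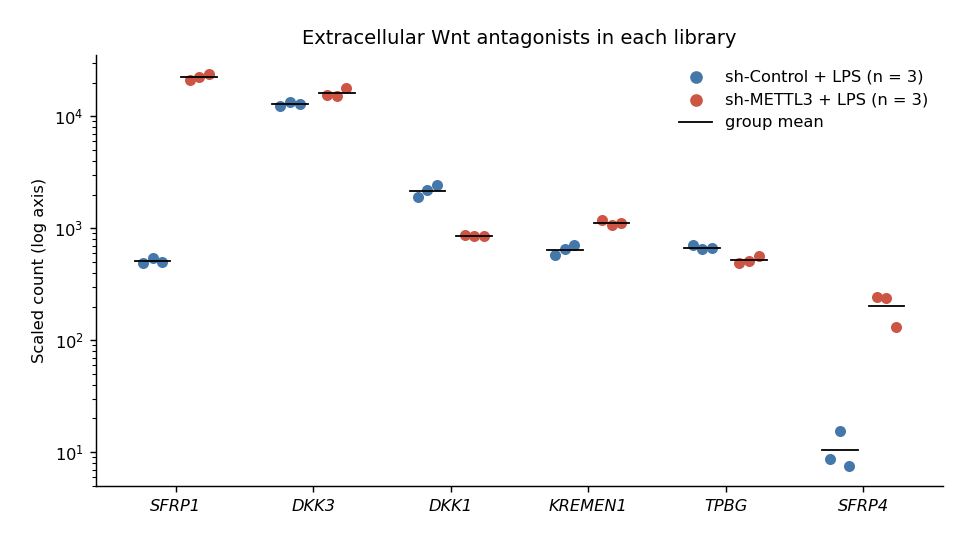
Scaled count (log axis) of the 6 listed extracellular Wnt antagonists in each library, with the 3 sh-Control libraries in blue, the 3 sh-METTL3 libraries in red and black lines at the group means. SFRP1 lies near 513 in the control cells and near 22382 in the METTL3-silenced cells, above DKK3, which led in the control cells.

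SFRP1 (ENSG00000104332) lies on the minus strand of chromosome 8, from 41261958 to 41309497 on GRCh38, with 4761 bases of exonic length. GENCODE release 29 gives it 2 protein-coding transcripts of 3 exons each. The longer has 4492 bases, with a coding stretch of 942 bases and a 3′ UTR of 3212 bases. The shorter starts from another first exon and has 3873 bases, with a coding stretch of 534 bases. The gene count does not tell them apart. Within the bounds of SFRP1 the annotation places 4 small genes, MIR548AO, RPS29P2, AC104393.1 and RNU6-895P, none of which was listed.

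The m6A mark is written in a short sequence whose most favoured form is GGACT in the letters of DNA. The longer SFRP1 transcript was searched on its own strand, and it holds this form 1 time, in the 5′ UTR, with 0 copies in the coding stretch and 0 in the 3′ UTR. The shorter transcript holds 0 copies. Of 820 other listed protein-coding genes whose longest coding transcript is within 10% of that length, 97.7% hold at least 1 copy, with a median of 4, and 78 (9.51%) hold 1 or none. Of the related forms, the longer SFRP1 transcript holds GGACA 8 times, then GAACT 3 times, and lastly GAACA 7 times. These forms cannot overlap each other, and all 4 together make 19 copies, 6 in the coding stretch and 11 in the 3′ UTR, against a median of 19 over the same 820 genes. These are matches of letters and not measured sites of methylation.

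The level of SFRP1 was then placed among the other listed genes, per kilobase of exonic length. It had 108 ± 6.39 scaled counts per kilobase in the control cells (SD, n = 3), the 4014th of 7758 listed genes, with 48.3% of listed genes below it. In the METTL3-silenced cells it had 4701 ± 290 (SD, n = 3), the 94th, with 98.8% below it. Among protein-coding genes it moved from the 3868th to the 84th place.

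In the control cells the protein-coding genes next to SFRP1 in that order were TIMM23B, CKAP2L and TECPR2 just above and PRMT3, SIK3 and ABHD5 just below. Their levels ran from 107 to 108 scaled counts per kilobase. None of these differed from SFRP1 beyond the spread, and 407 protein-coding genes had libraries overlapping its range of 103 to 115 scaled counts per kilobase. In the METTL3-silenced cells its neighbours were PPIA (cyclophilin A), RPL10 (a ribosomal protein) and ANXA2 (annexin A2) above, and CTSD (the lysosomal protease cathepsin D), SLC2A1 (the glucose transporter GLUT1) and THBS1 (thrombospondin 1) below. Their levels ran from 4548 to 4738 scaled counts per kilobase, and all 6 overlapped its range of 4411 to 4990. Only 26 protein-coding genes did so, so the place of SFRP1 there is better resolved.

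The change of SFRP1 stood apart from that of genes at its level. Of the 714 other listed genes within 1.25 times of its control level, 293 were higher and 421 lower, with a median log2 difference of -0.34 and quartiles of -0.59 and 0.40. The largest rise among them was that of MMP24, a membrane-type matrix metalloproteinase, named here after its value was seen. MMP24 went from 449 ± 53.1 to 2232 ± 572 (SD, n = 3 each), a log2 difference of 2.28 against 5.45 for SFRP1. Of the 5886 listed genes with a control mean of at least 100, SFRP1 had the highest log2 difference. The next was that of B4GALNT4, a glycosyltransferase gene also named after its value was seen, with 3.60.

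Over all listed genes SFRP1 was 16th by log2 difference. The 15 genes with a larger one all had a control mean of at most 8.43, and 4 of them had no read in any control library. They included COL5A1, a fibrillar collagen chain (11.31), RAX, a homeobox factor of the eye field, ADAMTS2, a procollagen protease (7.92), and FIBIN (6.67). The log2 differences of such genes depend on the pseudocount, and with a pseudocount of 0.1 in place of 1 SFRP1 was 66th. RAX, with 0 reads in the control libraries, was at least 165-fold higher when set against a floor of 3 reads per library. Among the 7204 listed genes with a control mean of at least 10 SFRP1 came first with a pseudocount of 1. NOTCH3 was next at 5.44, which is less than the SE away. By the ratio of the group means NOTCH3 was the higher of these 2, with 44.8 against 43.7.

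Measured by the gain in scaled count per kilobase, SFRP1 was 19th of all listed genes, with a gain of 4594. The 18 protein-coding genes that gained more were already abundant, such as ACTG1, GAPDH, VIM, TGFBI and IGFBP3, and the largest ratio between the group means among them was 2.77, against 43.7 for SFRP1.

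**Figure D2:**
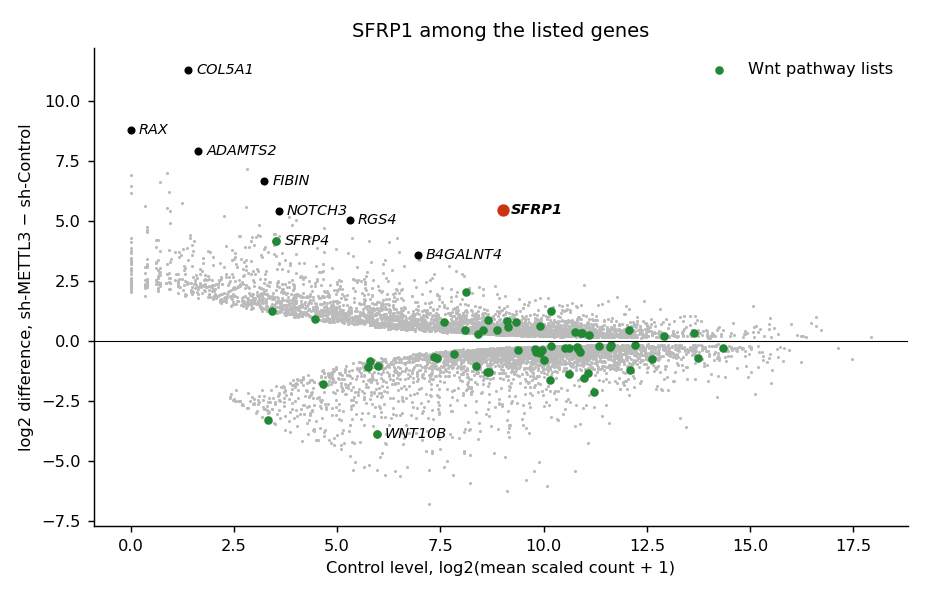
Each of the 7758 listed genes by its control level (horizontal, log2 of the mean scaled count + 1) and its log2 difference between sh-METTL3 and sh-Control (vertical). SFRP1 (red) stands alone at a difference of 5.45 for its control level, genes with larger differences lie at the left with a control mean of at most 8.43, and Wnt pathway genes are green. The empty band around 0 is where genes were not listed.

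To see which other Wnt genes differed, the listed genes of 9 lists by role were compared with limma, without SFRP1. Of 134 genes 59 were listed and all 59 passed the adjusted p of 0.05, 22 higher and 37 lower in the METTL3-silenced cells. To be listed a gene had to pass in the authors' own comparison. Of the 22977 genes tested there 33.8% were listed, a share to set beside the 59 of 134 and the counts per role below. How many of the 134 were among the genes tested is not known. Of all listed genes 97.9% passed, 46.6% as higher and 51.3% as lower, because the list had been selected for a difference in these libraries, so that all 59 passed says nothing about the Wnt genes. What can be compared is the direction. Of the called Wnt genes 37.3% were higher, against 47.6% of all called genes, and the median log2 difference was -0.28 against -0.21. The groups did not overlap for any of the 59, as for 98.5% of all listed genes. The other 75 Wnt genes, among them CTNNB1, which encodes β-catenin, and AXIN2, a common readout of the pathway, were not listed and not analysed here.

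Of the 37 lower Wnt genes 6 (LRP5, FZD4, the targets FOSL1, MMP7 and CD44, and the nuclear gene BCL9L) lie on chromosome 11, where 76.6% of 578 listed genes were lower, with a median log2 difference of -0.56, against 52.3% of all listed genes. DKK3 lies on the same chromosome and was higher. The part of this shift in their values, and in the share of Wnt genes that were higher, was not tested.

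**Figure D3:**
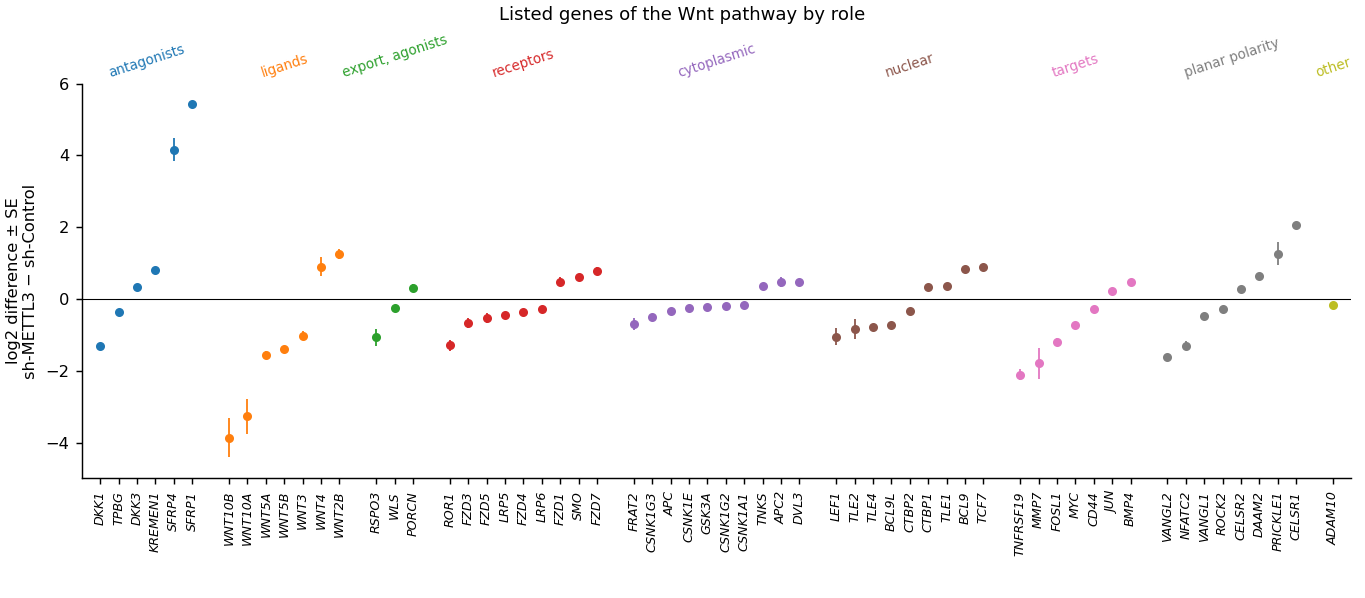
The log2 difference between sh-METTL3 and sh-Control (vertical, ± SE by limma) of the 60 listed Wnt pathway genes, grouped by role and ordered within each role. SFRP1 and SFRP4 stand at the top with 5.45 and 4.16, and the ligands WNT10B and WNT10A at the bottom.

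The extracellular antagonists went in both directions. Besides SFRP1, 5 of 16 were listed, 3 higher and 2 lower, with a median log2 difference of 0.33. Of the 5 genes of the SFRP family 2 were listed, SFRP1 and SFRP4, both higher, and SFRP2, FRZB and SFRP5 were not analysed here. SFRP4 had scaled counts of 8.77, 15.4 and 7.48 in the control libraries and 242, 239.7 and 131 in the METTL3-silenced ones. The groups lay far apart, with sh-METTL3 replicate 3 the lowest of its group, and the log2 difference was 4.16 (SE 0.32, adjusted p 5.72e-06 by limma). Per kilobase of exonic length SFRP4 reached 56.6 ± 17.6 in the METTL3-silenced cells (SD, n = 3), far below the 4701 of SFRP1.

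The Dickkopf genes, which encode another family of secreted regulators, split. DKK1, an inhibitor that binds LRP6, had 1894, 2184 and 2409.7 in the control libraries and 875, 847 and 858 in the METTL3-silenced ones. It fell by 1.32 on the log2 scale (SE 0.0826, adjusted p 1.49e-06 by limma). DKK3, a divergent member of the family, rose from 12807 ± 489 to 16168 ± 1396 (SD, n = 3 each), a log2 difference of 0.33. KREMEN1, a receptor for DKK1 that helps to remove LRP6 from the surface, rose from 643 ± 63.3 to 1122 ± 57.2 (SD, n = 3 each). TPBG, a membrane protein that dampens the pathway, fell by 0.36 on the log2 scale, and its call was lost with RLE size factors. DKK2, WIF1, SOST and NOTUM were among those not listed.

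Per kilobase of exonic length the order of these antagonists changed. In the control cells DKK3 was first with 2531 ± 96.6 scaled counts per kilobase and DKK1 followed with 980 ± 117, while SFRP1 came next with 108 ± 6.39 (SD, n = 3 each). In the METTL3-silenced cells SFRP1 was first with 4701 ± 290, DKK3 followed with 3196 ± 276 and DKK1 next with 390 ± 6.50 (SD, n = 3 each). No neighbours in either order overlapped in their libraries. The summed level of the 6 genes was 3800 ± 194 and 8560 ± 526 scaled counts per kilobase (SD, n = 3 each), and SFRP1 made up 2.83% ± 0.119 and 54.9% ± 1.00 of it. The summed level of the 7 listed Wnt ligands was 836 ± 58.8 and 502 ± 53.1 (SD, n = 3 each). Per kilobase, SFRP1 alone was below the sum of these 7 listed ligands in the control cells and above it in the METTL3-silenced cells. Another 12 ligands and 11 antagonists were not listed, so both sums are partial and the total levels are unknown.

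Of 19 Wnt ligands 7 were listed, 2 higher and 5 lower, with a median log2 difference of -1.38. WNT5A, which mostly signals without β-catenin, had 1827, 2130.1 and 2131 in the control libraries and 597, 759 and 722 in the METTL3-silenced ones, and fell by 1.55 on the log2 scale (SE 0.0975, adjusted p 1.55e-06 by limma). Its paralog WNT5B fell by 1.38, from 1565 ± 108 to 600 ± 17.7 (SD, n = 3 each). WNT3 fell by 1.02 on the log2 scale. WNT10B had 63.8, 57.6 and 61.7 in the control libraries and 0.933, 2.58 and 10.1 in the METTL3-silenced ones, a log2 difference of -3.87 that was -4.56 without sh-METTL3 replicate 3, the highest of its group. WNT10A, with 6.38, 7.69 and 13.1 in the control libraries and 0, 0 and 0 in the METTL3-silenced ones, was at least 2.71-fold lower against a floor of 3 reads per library. In the other direction, WNT2B had 996, 1179.9 and 1289.9 in the control libraries and 2979.9, 3210.1 and 2151 in the METTL3-silenced ones, a rise of 1.25 on the log2 scale (SE 0.14, adjusted p 7.06e-05 by limma). WNT4 was higher by 0.91 at a low level, from 21 ± 2.22 to 41.1 ± 11.3 (SD, n = 3 each), and lost its call in 5 of 16 alternatives.

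The genes for the release of Wnt proteins and for the R-spondins, secreted proteins that amplify the signal, were listed in 3 of 7 cases. RSPO3 fell by 1.07 on the log2 scale, from 52.4 ± 3.76 to 24.9 ± 6.16 (SD, n = 3 each). WLS, the carrier that brings Wnt proteins to the surface, had a log2 difference of -0.26, and PORCN, which attaches the lipid they need, one of 0.31. These calls were lost in 4 and 6 of 17 alternatives.

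Of 22 receptors 9 were listed, 3 higher and 6 lower, with a median log2 difference of -0.36. Among the Frizzled receptors, which share with SFRP1 the cysteine-rich domain that binds Wnt proteins, FZD7 rose from 190.1 ± 8.14 to 328 ± 25.8 (SD, n = 3 each), a log2 difference of 0.78. FZD1 was higher by 0.48, a call lost without sh-Control replicate 1 and without sh-Control replicate 3. FZD3, FZD5 and FZD4 fell by 0.67, 0.53 and 0.36 on the log2 scale. SMO, a related receptor that serves Hedgehog signalling, rose by 0.61. The co-receptors LRP5 and LRP6 fell by 0.44 and 0.27 on the log2 scale, and the call of LRP6 was lost with RLE size factors. ROR1, a receptor for WNT5A, fell from 394 ± 59.9 to 162 ± 33.1 (SD, n = 3 each), a log2 difference of -1.29.

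Of 22 cytoplasmic genes 10 were listed, 3 higher and 7 lower, with log2 differences from -0.70 to 0.48. DVL3, which relays the signal from Frizzled, rose by 0.48, FRAT2, which holds GSK3 in check, fell by 0.70, and CSNK1G3, a casein kinase, fell by 0.51. The call of FRAT2 was lost without sh-Control replicate 1.

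Of 16 nuclear genes 9 were listed, 4 higher and 5 lower. LEF1, a DNA-binding partner of β-catenin and itself a common target, fell from 63 ± 1.5 to 30.7 ± 8.54 (SD, n = 3 each), a log2 difference of -1.05. TCF7, its relative, rose by 0.88 on the log2 scale, from 404 ± 51.7 to 741 ± 58.5 (SD, n = 3 each). TLE2, a co-repressor, had a log2 difference of -0.84, but its call was lost in 12 of 16 alternatives.

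Of 14 genes often used as targets of the pathway 7 were listed, 2 higher and 5 lower, with a median log2 difference of -0.74. TNFRSF19, a receptor of the TNF family, had 1982, 2377 and 2757 in the control libraries and 561, 661 and 434 in the METTL3-silenced ones, and fell by 2.11 on the log2 scale (SE 0.151, adjusted p 3.71e-06 by limma). MMP7, a matrix protease, fell from 24.4 ± 5.00 to 7.19 ± 5.16 (SD, n = 3 each), and FOSL1, an AP-1 factor, from 4330.3 ± 467 to 1889 ± 281 (SD, n = 3 each). The 2 that rose were BMP4, by 0.48, and JUN, by 0.22 on the log2 scale. The call of JUN was lost in 6 of 17 alternatives.

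Of 16 genes of planar cell polarity and Wnt routes without β-catenin 8 were listed, 4 higher and 4 lower. CELSR1, an atypical cadherin, had 279, 266 and 280.4 in the control libraries and 1169, 1109.5 and 1153 in the METTL3-silenced ones, a rise of 2.05 on the log2 scale (SE 0.0724, adjusted p 5.03e-08 by limma). VANGL2, another core polarity gene, fell by 1.63 and NFATC2, a calcium-dependent factor, by 1.30 on the log2 scale.

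ADAM10, the protease described as a target of SFRP1, went from 4776 ± 212 to 4261 ± 157 (SD, n = 3 each), a log2 difference of -0.16. Its call was lost in 12 of 17 alternatives. TNFSF11 was not listed.

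Genes whose pattern over the 6 libraries was most like that of SFRP1 were sought by the root-mean-square distance between log2 values, each gene centred on its own mean, among 5724 other protein-coding genes with a mean of at least 100. Of the 8 nearest, 7 are described here, RGS4, SLC6A17, NOTCH3, SAMD11, RNF157, C2orf72 and WNK2, at distances from 0.235 to 0.597. With only 2 groups this measure picks genes with a step of the size of that of SFRP1, and these 7 passed the limit on the mean through the METTL3-silenced libraries, so their values are a description. RGS4, which shortens G protein signals, was the nearest. It had 39.9, 37.5 and 38.3 in the control libraries and 1301, 1423 and 1208 in the METTL3-silenced ones, a ratio of 34 between the means. SLC6A17, a transporter of neutral amino acids into synaptic vesicles, went from 15.1 ± 1.65 to 531 ± 27.9 (SD, n = 3 each). NOTCH3, a receptor of the Notch pathway, went from 11 ± 4.5 to 493 ± 10.2 (SD, n = 3 each), a ratio of 44.8. These 7 differed from SFRP1 in level, with a control mean of at most 85.7 and from 52.5 to 271 scaled counts per kilobase in the METTL3-silenced cells against 4701. With Pearson's r as the measure 1 of the 8 genes was found again, and with no limit on the mean 5 were, so the names depend on the measure.

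**Figure D4:**
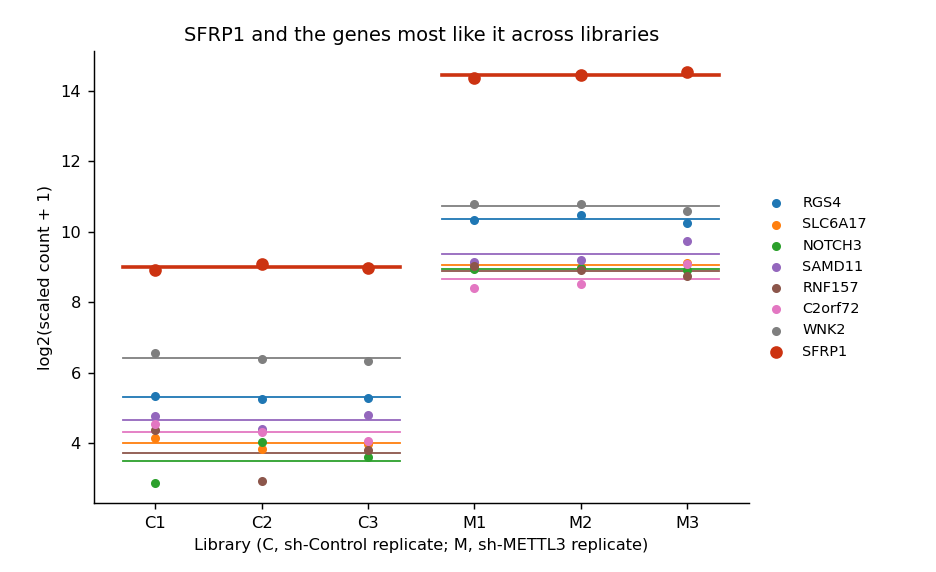
The log2(scaled count + 1) of SFRP1 (red) and of 7 of the 8 genes most like it in each library, with horizontal lines at the group means. The genes, chosen for a step like that of SFRP1, have ratios of means from 19.8 (WNK2) to 44.8 (NOTCH3), and SFRP1 lies above the others in every library.

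On chromosome 8 the listed genes around SFRP1 did not share its difference. The nearest listed genes were GPAT4, an acyltransferase of lipid synthesis, 268 kb away on one side, and the long noncoding RNA gene SIRLNT, 919 kb away on the other. GPAT4 went from 1776 ± 64 to 1545 ± 24.3 (SD, n = 3 each), a log2 difference of -0.20. SIRLNT was near the limit of counting, with 0, 1.92 and 0.935 in the control libraries and 6.53, 11.6 and 7.84 in the METTL3-silenced ones. Further out, ANK1 (ankyrin 1) rose by 1.90 on the log2 scale at a low level, from 16.3 ± 6.2 to 65.4 ± 31.8 (SD, n = 3 each), while PLAT, the tissue plasminogen activator, fell by 1.55, and KAT6A and AP3M2 fell by 0.35 and 0.23. On the side of SIRLNT the log2 differences were -0.28 for TACC1, -0.28 for ASH2L, -0.60 for EIF4EBP1 and 0.45 for RAB11FIP1. Within 10 Mb the 20 other listed genes ran from -1.55 to 2.40 with a median of -0.26, and 14 of them were lower. Over the whole chromosome 131 other listed genes were higher and 136 lower. Of all listed genes 52.3% were lower, with a median log2 difference of -0.21. Genes of the region that were not listed were not analysed here.

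**Figure D5:**
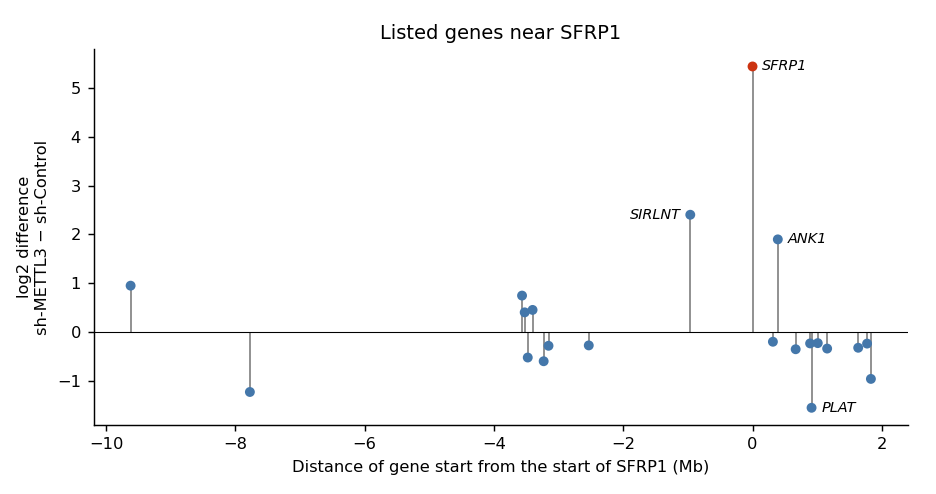
The log2 difference between sh-METTL3 and sh-Control (vertical) of the listed genes whose start lies within 10 Mb of that of SFRP1 (horizontal, distance in Mb). SFRP1 (red) stands at 5.45, and the 20 other genes lie between -1.55 and 2.40.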

How the data were processed

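RNA of 3 sh-Control and 3 sh-METTL3 libraries was sequenced, and groups were taken from the sample labels. The submitters' processing notes name HISAT2 2.0.5 and hg38, the study's methods name Cufflinks, and the read counter and strandedness are not given in the sources used here. In the library columns the authors deposited a signal, the gene read count divided by a size factor. 100% of values came out within 0.01 of whole reads. The group means that the authors deposited are the same signal averaged. Their log2 fold change, p-value and adjusted p-value, also deposited, were not used as results. All 7758 listed genes had passed an adjusted p of 0.05 there, and the largest deposited p-value set against its adjusted value gave 22977 genes tested. Exonic lengths are those deposited, positions equal GENCODE release 29 on GRCh38, and 13 symbols written as dates were replaced from it.

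limma 3.58.1 in R 4.3.3 was fitted to log2(scaled count + 1) of all listed genes, with an intensity trend and no covariates, so that changes of genes near 0 come out too small. The Benjamini-Hochberg adjustment of its p-values ran over 22977 tests, with unlisted genes taken as 1. The fit was tested on simulated data. Alternatives used edgeR 4.0.16 and DESeq2 1.42.0 on the recovered reads, other scalings, pseudocounts, filters and thresholds, a replicate block, and each library left out. Genes were named by a rule that took SFRP1, METTL3, the listed antagonists, ligands, receptors and ADAM10, the 3 largest differences per other Wnt list, the 8 genes most like SFRP1, its neighbours in level and position, and genes of larger rise. The members and lists were chosen with earlier results of these data known. BMP4 and JUN were named outside the rule, as the listed targets that rose. No sequence is printed. 1 of the 8 genes most like SFRP1 is not reported here.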

Additional observations from a re-analysis of the deposited data

How the results depend on the processing

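The log2 difference of SFRP1 was 5.45 and ranged from 5.40 to 5.57 over the alternatives; the highest, 5.57, came from RLE size factors, which moved the median of all listed genes by 0.12, and the difference of SFRP1 moved by as much. Leaving out 1 library gave from 5.40 to 5.49. Its place by log2 difference, 16th, was 66th with a pseudocount of 0.1, 12th among genes with a mean of at least 50, 13th among protein-coding genes and between 16th and 18th with 1 library removed. Its place by level per kilobase in the METTL3-silenced cells, 94th, was 71st without division by length, 84th among protein-coding genes and between 89th and 94th with 1 library removed. Of the 8 genes most like it 1 was found with Pearson's r and 5 without a limit on the mean.

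The 59 called Wnt genes (22 higher, 37 lower) became 18 (4 and 14) when a change of at least 2 times was also asked for. Of all 7758 listed genes 2383 had a log2 difference beyond 1 in either direction, called or not. The called Wnt genes were 47 (22 and 25) with RLE factors and 58 (22 and 36) with edgeR on the recovered reads. With 1 library removed they were from 48 to 55 (from 17 to 21 and from 31 to 35). For these settings the share over all listed genes is not given, so the counts show only how the calls held. No Wnt gene changed sign in the 16 or 17 alternatives run for it, 40 kept their call in all of those, and 19 lost it in at least 1, most often ADAM10 and TLE2 (12 each). METTL3, at -0.30, did not pass with RLE (-0.18), TMM (-0.26) or listed-gene totals (-0.26), without the intensity trend (-0.30), or adjusted over all 58780 annotated genes (-0.30); with 1 library removed it lay between -0.38 and -0.18 and did not pass without any 1 of the control libraries. What lies behind these losses was not tested.

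In the fit with a replicate block 54 Wnt genes were called (21 higher, 33 lower), all among the 59, and the difference of SFRP1 stayed at 5.45. The deviations from the group means correlated at 0.00361, 0.0193 and -0.0150 between libraries of the same number, and not every library correlated best with its own number. The numbers were therefore not taken as pairs. The total depth per library is not known, and unlisted genes were not analysed.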
